A study of Mus musculus with 6 samples.

Results

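The genes described here encode the first kinases and adaptors of T cell receptor signalling: the kinases Lck, Fyn, Zap70 and Csk, the adaptors Lat, Lcp2 and Themis, and the effectors Plcg1 and Vav1. They were taken by symbol from a deposited table of 37867 gene models. Of the 9 genes, 8 were listed under their own symbol and 1, Themis, under its older name E430004N04Rik, which the RefSeq gene table gives as a synonym. Each had 1 model, and the authors had tested all 9, among 13834 tested models. The RNA came from double positive thymocytes, sorted as CD4+CD8+ cells of the C57bl6 strain, from mice with a knockout of mir181a1/b1 (KO) and from wild type mice (WT). There were 3 sorted populations of each genotype, and no treatment is named. The labels give no ages, do not say how the knockout was made, and do not say whether the populations came from separate animals, so that p-values may measure technical spread. The authors gave 1 FPKM value per genotype, that is, fragments per kilobase of transcript, scaled to the mapped fragments, so values of single populations were not used here and no SD is given. Depth is unknown. Ratios are KO over WT on the log2 scale, and their error is the standard error (SE) implied by the authors' test statistic.

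When the receptor of a thymocyte meets a peptide on MHC, Lck, carried by the coreceptors CD4 and CD8, phosphorylates the CD3 chains. Zap70 binds there and phosphorylates Lat and SLP-76, the product of Lcp2, on which Plcg1 and Vav1 are assembled, and calcium, Ras and the cytoskeleton follow. Csk holds Lck and Fyn in check by phosphorylating their inhibitory tail, and Themis is needed for double positive thymocytes to be selected efficiently. The miR-181 family is known as a tuner of receptor sensitivity at this stage.

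The microRNAs encoded by the genes targeted in the knockout and their relatives are shown with the seed, bases 2 to 8, in capitals. A target transcript would be read through this seed. The sequences are those of RefSeq on GRCm38.p6. The targeted genes Mir181a-1 and Mir181b-1 lie on chromosome 1.
miR-181a-5p: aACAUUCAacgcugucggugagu
miR-181b-5p: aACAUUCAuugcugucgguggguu
miR-181c-5p: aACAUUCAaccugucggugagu
miR-181d-5p: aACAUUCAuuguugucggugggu
All 4 have the same seed. The mature miR-181a-5p and miR-181b-5p are also encoded on chromosome 2 by Mir181a-2 and Mir181b-2. Levels of these microRNAs were not analysed here, so the genotype labels were not checked against the targeted genes.

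Matches to this seed were searched on the transcript strand in the 3′ UTR of 1 reference transcript per gene from GENCODE M21. The letters were TGAATGT (match to bases 2 to 8) and GAATGTA (match to bases 2 to 7 followed by A). These overlap, and together they form TGAATGTA. Of the 9 genes, only Plcg1 and Themis held one, and both were TGAATGT. They are shown with 8 bases on either side and the match in capitals.
Plcg1, chr2:160762374-160762396, plus strand, GRCm38: tctggcccTGAATGTggaggtgg
Themis, chr10:28881344-28881366, plus strand, GRCm38: actctcacTGAATGTtcaccttt
Either motif occurred in 19.7% of 20642 reference 3′ UTRs. Among 3′ UTRs within 20% of the same length, the share was 20.04% for the 1150 bases of Plcg1 and 40.6% for the 2871 bases of Themis. The other 7 members had 3′ UTRs of 222 (Lat) to 1608 bases (Lcp2) without a match in this transcript. A match describes the letters and is not evidence of a site in use.

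Of the 9 transcripts, 8 had a lower value in the KO, and the lowest ratios were those of the kinases Zap70 and Csk and the adaptor Lat. By the q-values of the authors' deposited table at a threshold of 0.05, 4 of the 9 genes fell (Zap70, Csk, Lat and Lck), none rose and 5 did not pass. Over all tested models 15.3% were called lower and 1.79% higher by the same rule. The median log2 ratio of the 9 genes was -0.45, beside -0.17 over all tested models. With the ratios centred on that shift, Zap70 (-1.22), Csk (-0.96) and Lat (-0.86) still passed as lower, Lck no longer passed, and Themis passed as higher. Centring gave 1490 lower and 496 higher models in all, against 2120 lower and 247 higher as deposited. In a pool of sorted cells, less RNA in every cell and fewer cells with the transcript cannot be told apart.

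All 9 genes were well expressed. In the KO the levels ran from Lck at 595 FPKM over Lat (283), Themis (251), Lcp2 (134), Plcg1 (109), Vav1 (74.3), Fyn (45.4) and Csk (37.9) to Zap70 at 28.8 FPKM. In the WT the order was Lck at 983 FPKM, Lat (574), Themis (181), Lcp2 (160), Plcg1 (125), Vav1 (102), Csk (82.6), Zap70 (75.3) and Fyn at 47.1 FPKM. The first 6 places were the same in both genotypes, and Fyn stood above Csk and Zap70 in the KO and below them in the WT. Neighbours in these orders cannot be compared with a spread, because each level is a single value per genotype. The lowest of the 9 levels, that of Zap70 in the KO, was still above 82.7% of the tested models of the KO.

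**Figure D1:**
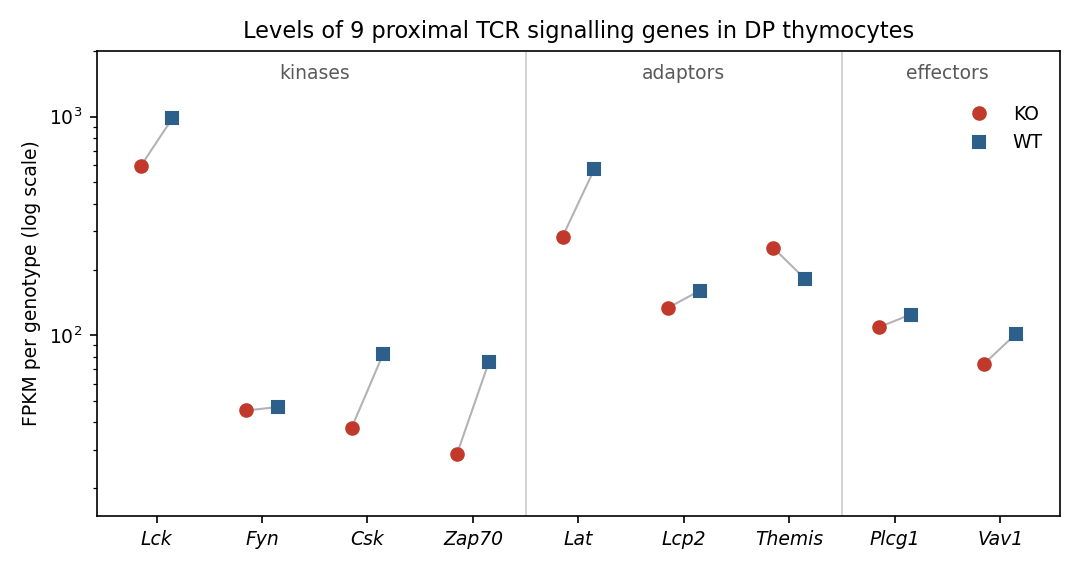
FPKM of the 9 genes in the KO (red circles) and the WT (blue squares) on a log axis, 1 value per genotype for each gene and no error bars, with genes grouped by role. The steepest lines join the values of Zap70 (28.8 in the KO and 75.3 FPKM in the WT), Csk and Lat, and only the line of Themis slopes down to the WT.

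Among the kinases, Lck, the Src family kinase that starts receptor signalling, had 595 FPKM in the KO and 983 FPKM in the WT. Its log2 ratio was -0.73 (implied SE 0.26, q = 0.0323 in the authors' deposited table), a level 1.65-fold higher in the WT. The model lies on chromosome 4 from 129225601 to 129250850 (mm9). Centred on the shift of all models, the ratio was -0.56 with an adjusted p of 0.134 over the centred models (normal tails, Benjamini-Hochberg), so that this call depended on the scaling.

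Fyn, the second Src family kinase of T cells, had 45.4 FPKM in the KO and 47.1 FPKM in the WT, a log2 ratio of -0.05 that turned to 0.11 when centred. Its q was 0.95 in the authors' deposited table, and the 95% interval from the implied SE ran from -0.54 to 0.44. The locus listed for Fyn, chromosome 10 from 39089891 to 39285800 (mm9), is also listed for the antisense model linc-Fyn-AS. That model had 0.589 FPKM in the KO and 0.267 FPKM in the WT. The level of Lck was 13.1 times that of Fyn in the KO and 20.9 times in the WT. The difference between the ratios of the members was not tested. Other Src family kinases were at low levels: Fgr had 4.01 FPKM in the KO and 4.88 FPKM in the WT, and Yes1, Src, Lyn and Blk were under 1 FPKM in both genotypes. Frk was listed at 0 in both.

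Csk, which restrains Lck and Fyn, had 37.9 FPKM in the KO and 82.6 FPKM in the WT. Its log2 ratio was -1.12 (implied SE 0.26, q = 2.5e-04 in the authors' deposited table), on chromosome 9 from 57474452 to 57501438 (mm9). The level of Lck was 15.7 times that of Csk in the KO and 11.9 times in the WT, and the level of Fyn was 1.198 times that of Csk in the KO and 0.570 times in the WT. The Csk-related kinase Matk fell as well, to 1.11 FPKM in the KO, against 4.54 FPKM in the WT (log2 -2.04, q = 0.00182 in the authors' deposited table).

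Zap70, the kinase recruited to phosphorylated CD3 chains, had the lowest ratio of the 9 genes. It stood at 28.8 FPKM in the KO and 75.3 FPKM in the WT, with a log2 ratio of -1.38 (implied SE 0.31, q = 2.02e-04 in the authors' deposited table). Its model lies on chromosome 1 from 36818705 to 36839661 (mm9). Its paralog Syk had 9.28 FPKM in the KO and 11.2 FPKM in the WT and did not pass (q = 0.655 in the authors' deposited table). Of the Tec family, which acts on Plcg1, Txk had 39.1 FPKM in the KO and 37.02 FPKM in the WT, and Tec had 11.4 FPKM in the KO and 14.1 FPKM in the WT. Neither passed the threshold, Btk was under 0.1 FPKM in both genotypes, and Bmx was listed at 0 in both.

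Of the 3 adaptors, 1 fell and 2 did not pass. Lat, the membrane scaffold that Zap70 phosphorylates, had 283 FPKM in the KO and 574 FPKM in the WT, a log2 ratio of -1.02 (implied SE 0.22, q = 1.31e-04 in the authors' deposited table). Its model lies on chromosome 7 from 133507341 to 133513048 (mm9). Lcp2, whose product SLP-76 joins Lat to Plcg1 and Vav1, had 134 FPKM in the KO and 160 FPKM in the WT. Its log2 ratio of -0.26 did not pass (q = 0.523 in the authors' deposited table), and the 95% interval from the implied SE ran from -0.71 to 0.19. The locus listed for Lcp2, chromosome 11 from 33529779 to 33998554 (mm9), is also listed for Kcnip1 and Kcnmb1. Both of these were under 0.1 FPKM in both genotypes. A locus listed for several models need not be the extent of any of them. The Lat paralog Lat2 had 1.32 FPKM in the KO and 1.19 FPKM in the WT, with an implied SE of 5.91 on the log2 scale, so that its ratio was not determined.

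Themis, on chromosome 10 from 28388200 to 28642173 (mm9), was the only member with a higher level in the KO. It had 251 FPKM in the KO and 181 FPKM in the WT, a log2 ratio of 0.47 (implied SE 0.21), and did not pass over all tested models (p = 0.0265, q = 0.116 in the authors' deposited table). The centred ratio was 0.64 with an adjusted p of 0.0243 over the centred models (normal tails, Benjamini-Hochberg). The level of Themis was 0.887 times that of Lat in the KO and 0.315 times in the WT. An antisense model, linc-Themis-AS, was listed at the same locus, with 1.83 FPKM in the KO and 1.42 FPKM in the WT. That was 0.73% of the level of Themis in the KO and 0.786% in the WT. The labels' kit does not mark strand, so reads from any bases that both transcripts share cannot be told apart by strand. Whether their exons overlap was not examined. Themis and Plcg1, the members with a seed match in the 3′ UTR, were both among the 5 genes that did not pass.

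The 2 effectors did not pass the threshold. Plcg1, the phospholipase that opens the calcium and Ras branches, had 109 FPKM in the KO and 125 FPKM in the WT (log2 -0.19, q = 0.821 in the authors' deposited table), with a 95% interval from -0.90 to 0.51. Its model was listed together with AK169777. The locus listed for it, chromosome 2 from 160557045 to 160698726 (mm9), is also listed for Zhx3, and need not be the extent of either. Zhx3 had 9.17 FPKM in the KO and 8.91 FPKM in the WT. Whether exons of Plcg1 and Zhx3 overlap was not examined, and no source used here says how reads were divided between them. Vav1, the exchange factor that activates Rac, had 74.3 FPKM in the KO and 102 FPKM in the WT (log2 -0.45, q = 0.242 in the authors' deposited table), with a 95% interval from -0.95 to 0.05. Its model lies on chromosome 17 from 57418522 to 57467376 (mm9). Of the paralogs, Vav2 had 9.42 FPKM in the KO and 12.2 FPKM in the WT, Vav3 had 2.54 FPKM in the KO and 1.63 FPKM in the WT, and Plcg2 was under 1 FPKM in both genotypes. None of the 3 passed.

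The ratios of the 9 genes ran with the base composition of their transcripts, and so did those of all genes. The 4 genes that fell had reference transcripts of 54.3% (Lck) to 60.1% GC (Csk). The 5 that did not pass had 38.5% (Themis) to 54.1% GC (Plcg1). Another complete coding transcript of Plcg1 had 54.34% GC, above the 54.28% of the reference transcript of Lck. With that transcript the ranges would overlap. Spearman's rho between GC content and the log2 ratio was -0.90 over the 9 genes and -0.764 over 8978 coding genes whose mean level reached 1 FPKM. These are correlations across genes of the same libraries and are given as descriptions. These genes were ordered by GC content and split into 10 groups of similar size, numbered from the lowest. Zap70, Csk and Lat lay in group 10, in which the median log2 ratio was -1.32 and 71.7% of the genes were called lower. Csk lay there by its reference transcript only. Its other complete coding transcripts, of 54.7% and 55.4% GC, fall within the range of group 8 (53.7% to 55.6%). The rho over the 9 genes also rests on the reference transcripts. Lck, Plcg1 and Vav1 lay in group 8, with a median of -0.70 and 32.1% called lower. Themis lay in group 1, where the median was 0.29 and 0.223% were called lower. Transcript length moved with the ratios too, with a rho of 0.783 over the 9 genes, from 1235 bases for Lat to 5107 for Plcg1. For the mean level of the 9 genes rho was 0.083. The part of GC content and length in the ratios was not tested beyond the removal of their trend given later.

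**Figure D2:**
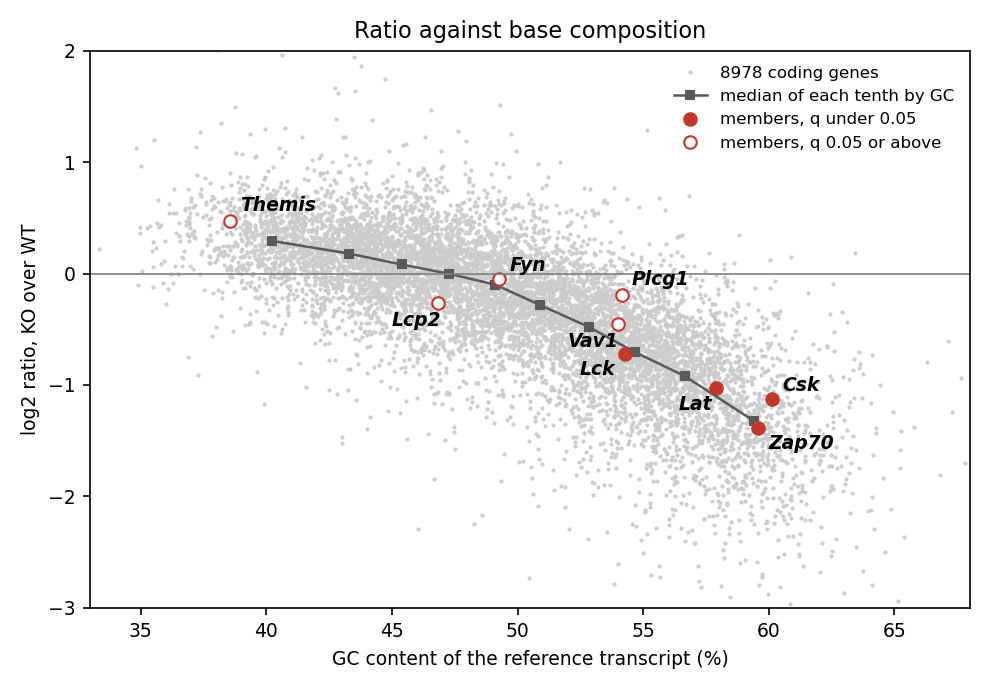
The log2 ratio, KO over WT, against the GC content of the reference transcript for 8978 coding genes (grey points, of which 27 lie outside the axes), the median of each of the 10 GC groups at its median GC content (squares) and the 9 genes (red circles, filled for a q under 0.05). The 9 genes run along the grey cloud, from Themis at 38.5% GC and 0.47 to Zap70 at 59.6% GC and -1.38.

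To show the base composition as letters, the first 90 coding bases of the reference transcripts of Zap70, with the lowest ratio, and of Lat and Themis, the adaptors with the lowest and the highest ratio, are given with G and C in capitals (GENCODE M21 transcripts, GRCm38).
Zap70, chr1:36770811-36770900, plus strand: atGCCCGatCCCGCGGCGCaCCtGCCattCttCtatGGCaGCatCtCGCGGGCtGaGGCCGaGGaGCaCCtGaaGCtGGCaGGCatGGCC
Lat, chr7:126369161-126369250, minus strand: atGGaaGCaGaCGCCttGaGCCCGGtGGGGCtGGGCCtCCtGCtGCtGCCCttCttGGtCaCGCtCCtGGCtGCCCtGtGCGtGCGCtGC
Themis, chr10:28668660-28668749, plus strand: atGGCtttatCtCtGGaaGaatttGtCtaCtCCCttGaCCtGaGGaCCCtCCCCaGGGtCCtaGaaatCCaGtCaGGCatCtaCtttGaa
In these windows 60 bases of Zap70, 62 of Lat and 43 of Themis are G or C. Over all 9 genes the windows did not divide by call. Plcg1 (68 bases) and Vav1 (61), which did not pass, stood as high as Zap70 and Lat, and Csk (48) and Lck (45), which fell, stood beside Fyn (48) and Lcp2 (46). Over the whole coding sequence the GC share was 59.9% in Zap70, 57.5% in Lat and 43.8% in Themis, and at the third codon position it was 77.5% in Zap70, 61.3% in Lat and 44.3% in Themis. The 3′ UTR of Themis had 33.96% GC, against 39.8% to 56.8% in the other 8 genes.

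With the trend of the log2 ratio on GC content and length removed, none of the 9 genes passed the threshold. The values were -0.086 for Lck, 0.057 for Fyn, 0.21 for Csk, -0.094 for Zap70, 0.23 for Lat, -0.30 for Lcp2, 0.085 for Themis, 0.32 for Plcg1 and 0.12 for Vav1. Their adjusted p-values (robust spline regression, normal tails of the implied SE, Benjamini-Hochberg over 8978 genes) ran from 0.824 for Lcp2 to 0.9999 for Lck, Fyn, Zap70, Vav1 and Themis. In this setting 0.991% of the genes were called lower and 0.791% higher. The median of the 9 genes was 0.085. Fyn, Csk, Lat, Plcg1 and Vav1 thereby changed sign against the deposited ratios. The removal takes out any part of a genotype effect that moves with GC content or length as well, and whether the trend is technical was not tested.

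Among the transcripts compared, the choice of reference moved the value of Csk the most. Its reference transcript had 60.1% GC, but its coding sequence had 55.1%, and 2 other complete coding transcripts had 54.7% and 55.4%. With the transcript of 54.7% the value of Csk after removal of the trend was -0.45, with an adjusted p of 0.605 from the same regression. For Lcp2 the choice turned the sign, at -0.30 with the reference transcript of 46.8% GC and 0.19 with another of 52.5% GC. Over all 25 complete coding transcripts of the 9 genes, none gave a call, and the lowest adjusted p was 0.529, for a Fyn transcript.

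**Figure D3:**
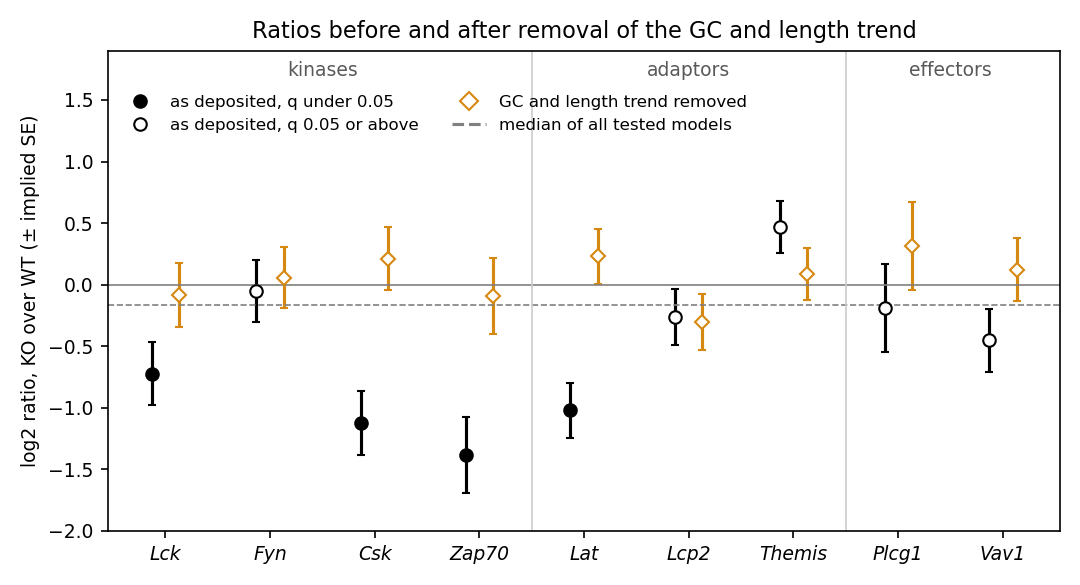
Log2 ratios, KO over WT, of the 9 genes as deposited (black circles, filled for a q under 0.05) and after removal of the trend on GC content and length (orange diamonds), with the implied SE as error bars and the median of all tested models, -0.17, as a dashed line. The 4 filled circles lie between -0.73 and -1.38, and the diamonds lie between -0.30 and 0.32.

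The genes around these 9 in the pathway were taken from lists of the receptor, other kinases, adaptors, enzymes, inhibitors and the calcium branch, 93 genes besides the 9. Of 83 that the authors tested, 14 were called lower and 2 higher in the KO by the authors' deposited table, and their median log2 ratio was -0.24. The shares over all tested models were 15.3% lower and 1.79% higher, so that these counts lie near the background, and the smaller counts of the single lists that follow are descriptions of few genes beside the same background. Of the 14 that fell, 12 were among the 22 genes with a GC content at or above that of Lck, and the other 2 (Cd3d and Nck2) were among the 61 below it. The 2 that rose, Cd28 and Ptpn22, had 41.2% and 45.1% GC. After removal of the trend no gene of the 78 with a value passed, and the median was 0.12.

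Among the adaptors and scaffolds other than the 9 genes, 3 of 17 tested genes fell, none rose, and the median log2 ratio was -0.23. Sit1, a transmembrane adaptor that dampens receptor signals, had 42.98 FPKM in the KO and 98.7 FPKM in the WT (log2 -1.199, q = 7.17e-05 in the authors' deposited table). Grap, of the Grb2 family, had 26.5 FPKM in the KO and 54.7 FPKM in the WT (log2 -1.04, q = 8.86e-04 in the same deposited table). The other, Nck2, an adaptor to the actin machinery, had 22.8 FPKM in the KO and 50.4 FPKM in the WT.

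Among enzymes and exchange factors 2 of 17 other genes fell and none rose, with a median of 0.12. Dgkz, the kinase that removes the diacylglycerol made by Plcg1, had 103 FPKM in the KO and 229.7 FPKM in the WT (log2 -1.15, q = 0.00219 in the authors' deposited table). Was, the actin regulator mutated in Wiskott-Aldrich syndrome, had 44.7 FPKM in the KO and 69.6 FPKM in the WT (q = 0.0463 in the authors' deposited table).

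Among the genes that restrain proximal signalling, Csk left out, 12 were tested, of which 3 were called lower and 1 higher, and 8 did not pass. Dok2, an adaptor that limits Ras activation, had 10.3 FPKM in the KO and 39.3 FPKM in the WT (log2 -1.94, q = 3.3e-09 in the authors' deposited table). Dok1 had 2.86 FPKM in the KO and 6.64 FPKM in the WT, and Ptpn6, which encodes the phosphatase SHP-1, had 58.2 FPKM in the KO and 97.7 FPKM in the WT. Ptpn22, the phosphatase that acts with Csk on Lck, was higher at 101 FPKM in the KO and 66.2 FPKM in the WT (log2 0.61, q = 0.0432 in the authors' deposited table). Without the trend its value was 0.53 with an adjusted p of 0.297, and that of Dok2 was -0.85 with an adjusted p of 0.106 (same regression).

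On the receptor side 2 of 11 genes fell and 1 rose. Cd3d had 223 FPKM in the KO and 345 FPKM in the WT, Cd5, a surface brake on the receptor, had 65.6 FPKM in the KO and 105 FPKM in the WT, and the costimulatory receptor Cd28 was higher at 109 FPKM in the KO and 64.5 FPKM in the WT. Their q-values in the authors' deposited table were 0.0452 for Cd3d, 0.0283 for Cd5 and 0.0178 for Cd28. In the calcium branch below Plcg1, 3 of 16 genes fell and none rose. Orai1, the pore of the calcium entry channel, had 1.34 FPKM in the KO and 5.06 FPKM in the WT. The calmodulin gene Calm3 had 30.01 FPKM in the KO and 69.7 FPKM in the WT. The inositol trisphosphate receptor Itpr3 had 7.89 FPKM in the KO and 13.9 FPKM in the WT.

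**Figure D4:**
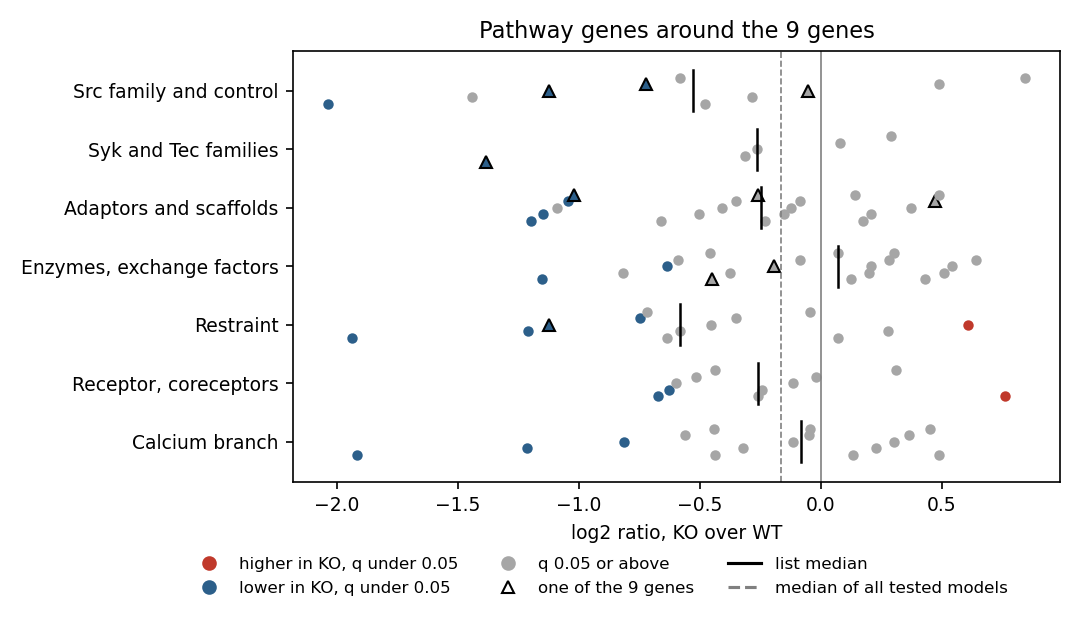
Log2 ratios, KO over WT, of the tested genes of 7 pathway lists, 1 point per gene, with triangles for the 9 genes, colour for the call in the authors' deposited table, a black bar for each list's median and a dashed line at the median of all tested models. Blue points lie at or below -0.63 in these lists and the 2 red points are Ptpn22 at 0.61 and Cd28 at 0.76.

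The genes nearest in level to the 3 members with the smallest p, by distance on the log2 scale over the 2 genotypes, were Sh3bgrl3 for Lat (272 FPKM in the KO and 533 FPKM in the WT, distance 0.12), Nt5c for Zap70 (29.4 FPKM in the KO and 74.3 FPKM in the WT, distance 0.034) and Hsdl1 for Csk (38.3 FPKM in the KO and 82.7 FPKM in the WT, distance 0.015). With 1 value per genotype, such a likeness rests on 2 numbers.

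Of 10 double positive markers, among them Cd4, Cd8a and Rag1, none passed the threshold. The 10 summed to 6172 FPKM in the KO and 6752 FPKM in the WT. Of these 10, 7 had a log2 ratio below 0, and the median was -0.10. Their ratios ran from -0.70 for Arpp21 (q = 0.054 in the authors' deposited table) to 0.31 for Cd4. Markers of other cells were low with few exceptions. B cell markers summed to 16.3 FPKM in the KO and 21.2 FPKM in the WT, mostly from Cd79b, with Ms4a1 under 0.1 FPKM. Of 8 myeloid markers 3 were tested and 1 (Itgam) was called lower, and the 8 summed to 3.4955 FPKM in the KO and 6.55 FPKM in the WT, with Cd14 at 0 in both. Of 5 erythroid markers found 1 was tested, which did not pass, with sums of 0.67 FPKM in the KO and 1.41 FPKM in the WT. The 7 stromal markers, of which 2 were tested, summed to 52.5 FPKM in the KO and 57.9 FPKM in the WT, mostly from Pecam1, with 1 (Epcam) lower and Pdgfra at 0 in both. Of 8 markers of mature T or NK cells 5 were tested, 1 was called higher and none lower, with sums of 149 FPKM in the KO and 93.8 FPKM in the WT. Of 6 double negative markers, all tested, 1 was higher and 1 lower, with sums of 56.9 FPKM in the KO and 60.2 FPKM in the WT. Il2ra, the interleukin 2 receptor alpha chain, had 29.4 FPKM in the KO and 2.89 FPKM in the WT, which is 10.2-fold higher in the KO. With the GC and length trend removed its log2 value was 3.19, and no other gene of the pathway or marker lists was called in that setting. Ptcra, the partner chain of the early receptor, had 9.59 FPKM in the KO and 26.1 FPKM in the WT. The part of these cells in the ratios of the 9 genes was not tested.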

How the data were processed

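RNA of 6 libraries, 3 per genotype, was sequenced after TruSeq preparation, per the labels' protocols. It had been extracted with Trizol or a column kit, which the labels do not tie to libraries. The submitters' processing notes name TopHat2 and mm9, and the counting tool and annotation were not given in the sources used here. Deposited by the authors were 1 FPKM value per genotype, a log2 ratio of WT over KO, a test statistic (treated as a score with normal tails), p-values and q-values. The log2 ratio was turned to KO over WT and divided by the statistic for the implied SE.

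Calls used the deposited q under 0.05 over 13834 tested models. For 8978 coding genes whose mean level reached 1 FPKM, the log2 ratio was regressed on cubic splines (5 pieces) of GC content and log2 length of 1 GENCODE M21 transcript, chosen by APPRIS rank (statsmodels 0.14.6, Huber weights). Residuals over the implied SE were adjusted by Benjamini-Hochberg. The 69 genes with a transcript over 1.2 times the span of their listed locus were left out. The code was tested on simulated data, and no coordinates were converted between builds. Alternatives were other q thresholds, centring, a filter at 1 FPKM, a pseudocount of 1, summed models and, added after seeing the data, members by symbol only and other isoforms.

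Members, lists and tests were chosen with earlier results of these data known. The named genes are the 9 members, relatives of at least 1 FPKM, up to 3 called genes per direction of each pathway list by smallest p, and the gene nearest in level to each of the 3 members with the smallest p. Other relatives, models listed at the same locus as a member, markers, Nck2 and Ptpn6 were named after their values were seen. Some list genes are not reported here.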

Additional observations from a re-analysis of the deposited data

How the results depend on the processing

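The call of lower levels for 4 of the 9 genes was the same when Themis was left out as found under an older symbol, and at a q threshold of 0.10 or with only models of at least 1 FPKM. At a threshold of 0.01 the count was 3, as it was with centred ratios, where 1 gene, Themis, was called higher. Removal of the GC and length trend gave 0 lower genes, and the median log2 ratio of the 9 genes was then 0.085. That removal reversed the sign for Fyn (0.057), Csk (0.21, but -0.45 and not reversed with its isoform of lowest GC content), Lat (0.23), Plcg1 (0.32) and Vav1 (0.12, or 0.093 with its isoform of lowest GC content), and centring reversed that of Fyn (0.11). The cause was not tested.

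For the other pathway genes, 14 lower and 2 higher as deposited became 9 and 0 at a threshold of 0.01, 9 lower with centred ratios, and 0 and 0 after removal of the trend. Over all tested models, 2120 lower and 247 higher became 1402 and 103 at 0.01, 409 higher at 0.10, 496 higher when centred, and 89 and 71 after removal of the trend, which was fitted to 8978 genes. No paired analysis was possible because the table holds 1 value per genotype and none per library, so the replicate block and leaving out a library were not run. Depth is unknown, and the implied SE of the 9 genes (0.21 to 0.36) limits what could be called.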
